A study of Saccharomyces cerevisiae with 24 samples.

Results

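The 26S proteasome of budding yeast was followed here through 33 genes: the 14 genes of the 20S core particle, 18 genes of the 19S regulatory particle, and RPN4, which encodes their transcriptional activator. They were taken by gene name from tables that counted 7126 genes, and all 33 were among the 6089 genes tested. The libraries came from 2 haploid MATa strains in the BY4741 background, with 3 libraries in each of 8 groups. In the crz1 cnb1 strain both the transcription factor gene CRZ1 (crz1delta::LEU2) and CNB1 (cnb1delta::KanMx), the regulatory subunit gene of the phosphatase calcineurin, were deleted. In the crz1 strain CRZ1 alone was deleted. Both carried his3delta1, ura3delta0, leu2delta0, lys2delta0 and a TEF-promoter GFP(Y66F) cassette with hygromycin marker (HYG-TEFp) on chromosome VI. No strain with intact CRZ1 was analysed here. RNA was taken at 0 h, without added calcium, and after 12, 48 and 72 h in 200 mM CaCl2 in synthetic medium with ammonium chloride as nitrogen source, in triplicate time courses with dilution every 12 h. No untreated library was taken at 12, 48 or 72 h, so CaCl2 and time in culture cannot be told apart.

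The proteasome degrades proteins that carry ubiquitin chains. Its core particle is a barrel of stacked alpha and beta rings with the proteolytic sites inside, and the regulatory particle that caps it consists of a base, which holds a ring of ATPases that unfold substrates, and a lid, which removes ubiquitin. Rpn4 binds the proteasome-associated control element (PACE) before proteasome genes and is itself a very short-lived substrate of the proteasome, so that loss of proteasome activity lets Rpn4 and then subunit transcripts rise. Calcineurin is activated by calcium, and Crz1 is its best known target in yeast. The comparison of the strains asks which responses to lasting calcium stress need calcineurin but not Crz1.

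At 12 h in CaCl2 against 0 h, 1 of the 33 genes fell in crz1 cnb1 cells (7.67% of all tested genes did), and the median log2 change over the 33 was -0.04. In crz1 cells 18 of the 33 fell at 12 h (14.4% of all), with a median of -0.35. The beta-ring gene PUP1 and the ubiquitin receptor gene RPN10 rose in both strains, and RPN4 itself was not called in any comparison in edgeR with all libraries. The change of the strain difference from 0 h did not pass the test for any of the 33 genes at any time, so a difference in response between the strains is not established by gene.

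The PACE word searched was GGTGGCAAA, on both strands of the 300 bases before each start codon. It was found for 27 of the 33 genes (81.8%) and for 73 of 6001 protein-coding nuclear genes (1.22%). Each of the 27 held 1 copy, 75 to 174 bases before the start codon (median 111 bases), 19 on the strand of the gene and 8 on the other. The 6 without it were PRE5, PUP1, RPN8, RPN10, RPN13 and RPN4. The shorter word GGTGGC, which is part of the longer one, was found for 29 of the 33 genes (87.9%) and for 6.45% of all, with RPN10 and RPN13 added. A match describes these letters and not binding by Rpn4, and a missing match says only that the exact word was not in this window. Near matches were not searched for, and the windows of PRE5, PUP1 and RPN8 held AGTGGCAAA. Those of RPN13 and, on the other strand, RPN10 held GGTGGCGAA. Each of these differs from the word in 1 letter, so these genes cannot be taken to lack a similar element.

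Sequences of 4 genes with the word show the element before 3 genes that fell in crz1 cells (RPT3, RPN11 and SCL1) and before PRE8, which rose. They are 5′ to 3′ on the strand of the gene, from the RefSeq R64 genome, with the word or its reverse complement in capitals.
RPT3 (chrIV:1261381-1261680, plus strand): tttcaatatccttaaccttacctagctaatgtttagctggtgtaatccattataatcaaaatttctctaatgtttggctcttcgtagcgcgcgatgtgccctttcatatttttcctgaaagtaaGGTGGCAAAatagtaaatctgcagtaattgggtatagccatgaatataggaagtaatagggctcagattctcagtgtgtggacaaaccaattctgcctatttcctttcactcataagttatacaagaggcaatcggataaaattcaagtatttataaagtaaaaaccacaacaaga
RPN11 (chrVI:153093-153392, plus strand): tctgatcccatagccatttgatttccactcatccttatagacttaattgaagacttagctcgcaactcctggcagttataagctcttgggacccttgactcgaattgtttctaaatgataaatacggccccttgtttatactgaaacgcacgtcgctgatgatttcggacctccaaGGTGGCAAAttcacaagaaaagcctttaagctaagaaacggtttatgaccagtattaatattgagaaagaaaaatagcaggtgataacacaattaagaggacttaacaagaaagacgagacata
SCL1 (chrVII:475248-475547, minus strand): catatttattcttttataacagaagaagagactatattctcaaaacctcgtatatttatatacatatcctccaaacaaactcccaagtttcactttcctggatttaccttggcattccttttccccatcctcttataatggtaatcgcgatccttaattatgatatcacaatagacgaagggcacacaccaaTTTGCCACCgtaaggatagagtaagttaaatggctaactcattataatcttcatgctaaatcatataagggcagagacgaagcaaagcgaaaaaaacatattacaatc
PRE8 (chrXIII:86740-87039, minus strand): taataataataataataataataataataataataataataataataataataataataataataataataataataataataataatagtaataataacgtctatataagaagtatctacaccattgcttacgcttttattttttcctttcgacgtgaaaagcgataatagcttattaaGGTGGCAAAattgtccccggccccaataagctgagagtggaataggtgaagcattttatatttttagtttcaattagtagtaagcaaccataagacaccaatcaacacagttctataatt

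The next sequences lie before genes without the exact word: PUP1 and RPN10, which rose, and PRE5, which fell.
PUP1 (chrXV:631752-632051, minus strand): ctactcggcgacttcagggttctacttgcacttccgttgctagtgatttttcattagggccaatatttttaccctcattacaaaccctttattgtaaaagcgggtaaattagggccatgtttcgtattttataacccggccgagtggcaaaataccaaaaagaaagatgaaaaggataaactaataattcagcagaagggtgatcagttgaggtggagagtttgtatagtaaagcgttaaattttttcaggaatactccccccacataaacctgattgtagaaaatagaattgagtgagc
RPN10 (chrVIII:498779-499078, plus strand): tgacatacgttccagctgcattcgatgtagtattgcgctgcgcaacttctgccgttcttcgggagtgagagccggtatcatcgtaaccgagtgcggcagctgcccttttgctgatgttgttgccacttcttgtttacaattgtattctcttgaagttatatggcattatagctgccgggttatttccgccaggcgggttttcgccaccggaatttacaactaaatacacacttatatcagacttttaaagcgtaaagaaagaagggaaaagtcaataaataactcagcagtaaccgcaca
PRE5 (chrXIII:901409-901708, plus strand): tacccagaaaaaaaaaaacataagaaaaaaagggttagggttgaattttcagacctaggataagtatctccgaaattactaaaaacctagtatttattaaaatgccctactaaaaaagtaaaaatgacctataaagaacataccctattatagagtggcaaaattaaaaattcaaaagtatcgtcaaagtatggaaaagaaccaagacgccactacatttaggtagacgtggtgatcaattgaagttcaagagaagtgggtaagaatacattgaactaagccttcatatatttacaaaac

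**Figure D1:**
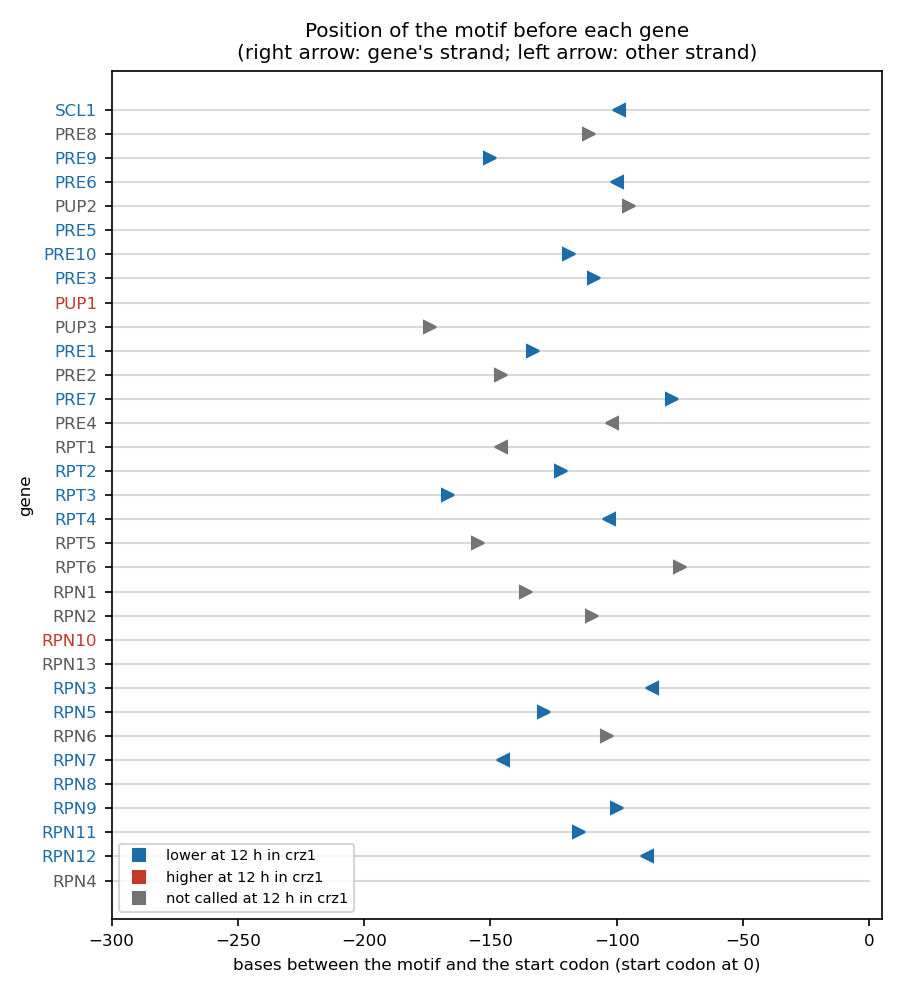
Position of the word GGTGGCAAA before each of the 33 genes, in bases before the start codon on the horizontal axis. Arrows point right where it lies on the strand of the gene and left where it lies on the other, and colours give the call at 12 h against 0 h in crz1 cells; the 27 arrows lie 75 to 174 bases before the start codon.

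The 24 libraries had 21582317 to 22016465 counts each. CNB1 had 3 to 22 counts per library in crz1 cnb1 cells and 1581 to 3043 in crz1 cells, and CRZ1 had 0 to 4 counts in either strain. Summed over 7 a-specific genes, markers of MATa cells, the level was 4673 to 4955 CPM (counts scaled to library size) at 0 h in crz1 cnb1 cells and 3934 to 4355 CPM in crz1 cells. In CaCl2 that sum was 998.7 to 1858 CPM in crz1 cnb1 cells and 968.7 to 1824 CPM in crz1 cells. Of 4 alpha-specific genes, which mark the other mating type, the pheromone genes MF(ALPHA)1 and MF(ALPHA)2 were at most 1.47 and 1.01 CPM in any library, the receptor gene STE3 at most 13.7 CPM and the agglutinin gene SAG1 17.6 to 40.6 CPM. SAG1 rose in crz1 cells, by 0.72 at 12 h (adjusted p = 0.0105) and 0.91 at 72 h (adjusted p = 0.00153), and was not called in crz1 cnb1 cells, while STE3 fell at all 3 times in crz1 cnb1 cells and at 48 and 72 h in crz1 cells. Whether these differences have a part in the proteasome results was not tested. On the first principal component 3 libraries stood apart from their groups. Replicate 1 at 48 h in crz1 cells scored 21.6, against 0.528 and -1.97 for the other two, and replicate 1 at 0 h scored -17.5 in crz1 cnb1 cells and -19.6 in crz1 cells, against -37.2 to -35.5 for the other 0 h libraries. The 12 h libraries were also spread on it, at 15.6, 4.87 and -5.34 in crz1 cells and 13.9, 5.05 and -5.42 in crz1 cnb1 cells. On the second component replicate 3 at 12 h in crz1 cells scored -33.3, against -0.148 and -19.7 for replicates 1 and 2. Counts of called genes are given below with and without the 3 that stood apart, and the 12 h libraries stayed in.

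Per gene length, the core particle genes had the higher median levels. In crz1 cnb1 cells at 0 h the median over genes was 206.7 TPM (a level per gene length, scaled to the library) for the alpha ring, 217.7 for the beta ring, 117.5 for the base and 151.8 for the lid. In crz1 cells at 0 h these medians were 244.9, 226.3, 127.6 and 168.3 TPM, in the same order of parts. PUP3, a beta-ring gene, had the highest mean level in all 8 groups (342.4 TPM in crz1 cnb1 cells and 378.2 TPM in crz1 cells at 0 h), followed in each by PRE10 of the alpha ring. The lowest subunit at 0 h was RPN1, a base scaffold gene, with 72.84 TPM in crz1 cnb1 cells and 79.62 TPM in crz1 cells, 4.7 and 4.75 times less than PUP3. RPN4 was at 68.46 TPM in crz1 cnb1 cells and 73.45 TPM in crz1 cells at 0 h, below every subunit mean. The transcript levels of the 32 subunits spanned more than 4-fold in each group. The parts overlapped: at 0 h in crz1 cnb1 cells PUP1 of the beta ring had 107.7 TPM and RPT3 of the base 202.1 TPM. The core genes are 597 to 867 bases long, and most regulatory particle genes are longer. Whether gene length has a part in the order of the parts was not tested.

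**Figure D2:**
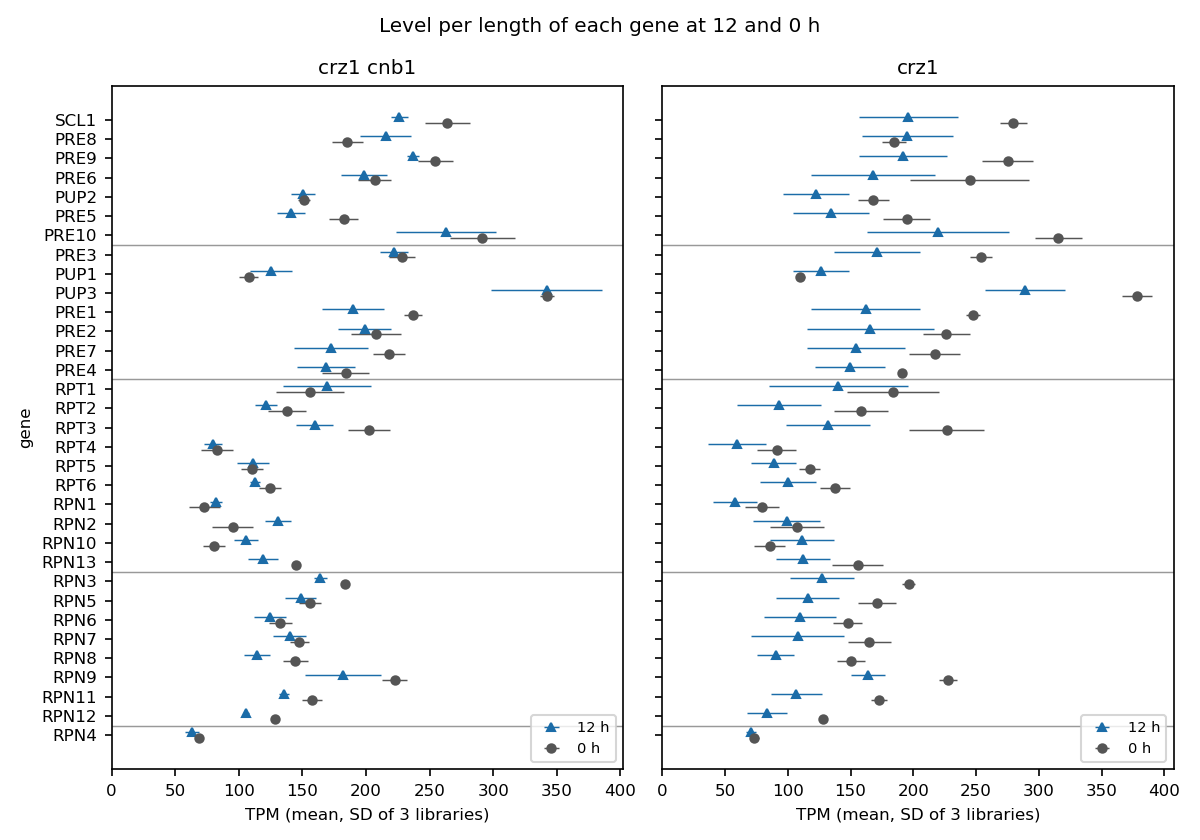
Level of each gene per length in TPM (horizontal axis; mean and SD of 3 libraries) at 12 h and 0 h, with crz1 cnb1 cells on the left and crz1 cells on the right and lines between the parts of the complex. PUP3 is highest in every group, and in crz1 cells most 12 h means lie left of the 0 h means.

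The TPM summed over the 32 subunits was 5540 ± 282 at 0 h, 5156 ± 309 at 12 h, 5558 ± 264 at 48 h and 5728 ± 490 at 72 h in crz1 cnb1 cells (SD, n = 3 each). In crz1 cells it was 5990 ± 423, 4346 ± 966, 4486 ± 1190 and 4922 ± 526 TPM at 0, 12, 48 and 72 h (SD, n = 3 each). The spread at 12 and 48 h in crz1 cells is the widest of the 8 groups. Of the crz1 libraries at 12 h, replicate 1 was highest for 28 of the 32 subunits and replicate 3 lowest for 30 of the 32. RNA was measured in bulk, so fewer cells with a transcript and less of it per cell cannot be told apart.

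Genes were called at an adjusted p below 0.05 (Benjamini-Hochberg over all tested genes) from edgeR's quasi-likelihood test on counts, and each log2 change is given ± its standard error. Levels per library are CPM scaled by TMM, a between-library normalization. Of the 33 genes in crz1 cnb1 cells, 3 rose at 12 h against 0 h (PRE8, PUP1 and RPN10) and 1 fell (PRE5), where 12.9% of all tested genes rose and 7.67% fell. At 48 h in this strain 1 rose (PUP1) and none fell in edgeR (14.3% and 9.54% of all), while DESeq2 called 1 higher and 3 lower. At 72 h 3 rose (PUP1, RPN2 and RPN10) and none fell in edgeR (20.1% and 15.7% of all), while DESeq2 called 3 higher and 1 lower. At unadjusted p below 0.05 the counts in crz1 cnb1 cells were 9, 6 and 5 of the 33 at 12, 48 and 72 h, of which 4, 1 and 3 were higher. Of all genes 34.5%, 36.6% and 45.8% passed at that threshold, above the share of the 33 each time. Medians over the 33 were -0.04, 0.02 and -0.06 at 12, 48 and 72 h. In each of these comparisons the share of the 33 called, in either direction, was below that of all genes.

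In crz1 cells at 12 h against 0 h, 2 of the 33 genes rose and 18 fell, where 17.6% of all tested genes rose and 14.4% fell. At 48 h against 0 h in crz1 cells 3 rose and 8 fell (19.8% and 13.7% of all tested genes), and at 72 h 3 rose and 13 fell (22.6% and 19.8%). The share of the 33 called lower was above that of all genes at each time, and the share called higher was below it. Medians over the 33 were -0.35, -0.17 and -0.26 on the log2 scale at 12, 48 and 72 h, beside -0.0045, 0.07 and -0.03 over all tested genes. Of the 33, 21 fell at 1 or more times, and the share of all genes that did is not given here. PRE5, RPT2, RPT3, RPN3, RPN5 and RPN11 fell at all 3 times, likewise without a share of all genes beside them. Of these calls, PRE5 at 72 h was lost in 9 of 15 alternatives, RPN11 at 48 h in 8, RPT3 at 72 h in 6 and RPN5 at 48 h in 4, and the others of the 6 genes in at most 3.

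Without the 3 libraries that stood apart, the counts in crz1 cnb1 cells were 3 higher and 2 lower at 12 h, 0 higher and 3 lower at 48 h, and 3 higher and 2 lower at 72 h. In crz1 cells they were 2 higher and 15 lower at 12 h, 2 higher and 12 lower at 48 h, and 4 higher and 10 lower at 72 h. The share of all genes called under each alternative is not given here. These counts and those that follow therefore show only how the calls moved, not how the 33 stood beside all genes. On the log2(TPM + 1) scale with limma, crz1 cells had 0 higher and 20 lower at 12 h, and 0 higher and 18 lower at 48 h. That scale moved the median of all genes to -0.16 at 12 h and -0.25 at 48 h in crz1 cells, and relative to that the 33 had medians of -0.36 and -0.25. A fit to only the crz1 libraries at 48 h and 0 h called none of the 33, where DESeq2 on all libraries called 13. With a single library left out, the crz1 count at 12 h was 12 without replicate 3 of 12 h, against 20 with all libraries. At 48 h, with 11 called in all, it was 6 without replicate 1 of 0 h, 7 without replicate 2 of 0 h and 6 without replicate 3 of 48 h. At 72 h, with 16 called in all, it was 10 without replicate 3 of 72 h. Leaving out a library gave 0 to 2 calls at 12 h, none at 48 h and 1 to 3 at 72 h in crz1 cnb1 cells.

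**Figure D3:**
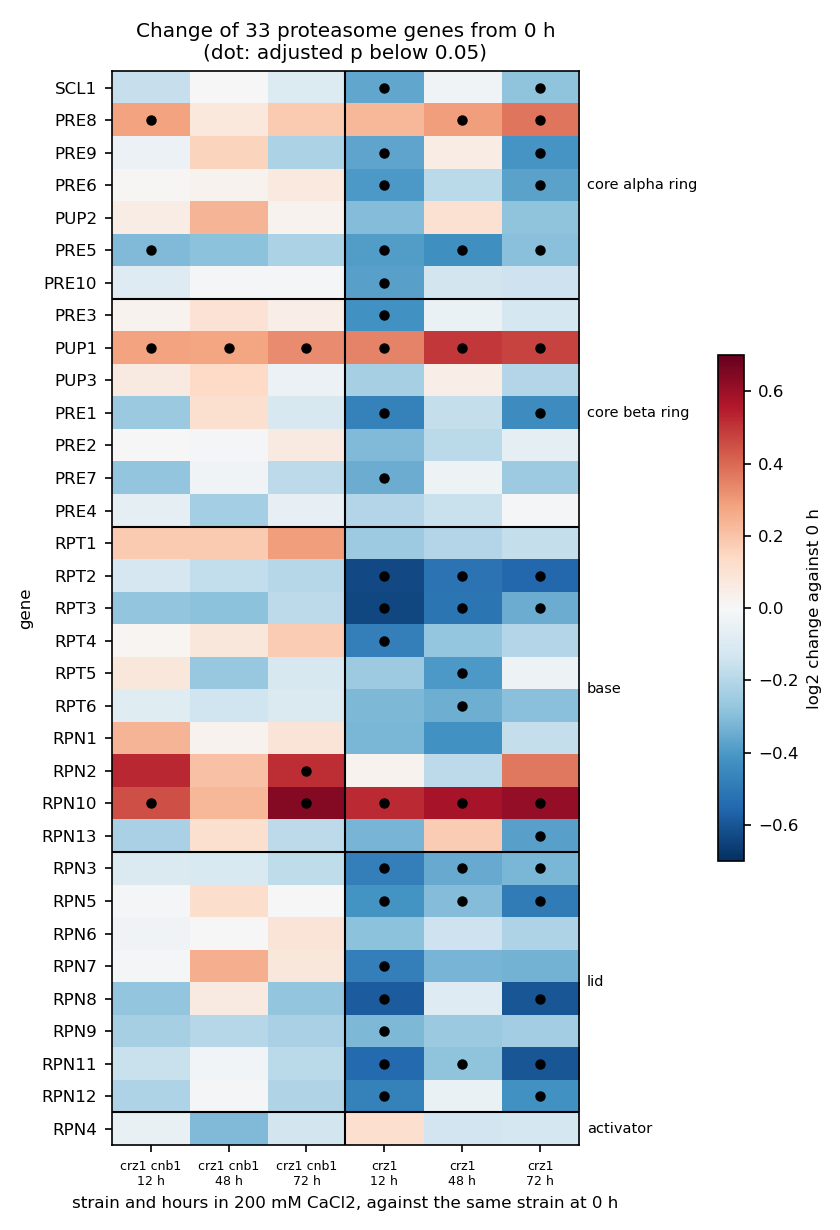
Log2 change against 0 h of the same strain for the 33 genes (rows, grouped by part of the complex) at 12, 48 and 72 h, with crz1 cnb1 cells on the left and crz1 cells on the right; red is higher, blue lower, and a dot marks an adjusted p below 0.05. Dots on blue number 18, 8 and 13 in crz1 cells, and PUP1 and RPN10 are red in all 6 columns, RPN10 without a dot at 48 h in crz1 cnb1 cells.

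Of the 4 parts of the complex, the lid had the largest share of genes called lower at 12 h in crz1 cells. There 7 of its 8 genes fell, all but RPN6, with a median of -0.47, where 14.4% of all tested genes fell. The calls of RPN7 and RPN9 were each lost in 4 of 15 alternatives, and those of the other lid genes called there in none. In all 8 the libraries at 12 h lay below every library at 0 h, as for 22.5% of all genes. At 72 h 5 of the 8 fell, where 19.8% of all tested genes did. In crz1 cnb1 cells edgeR with all libraries called none of the 8 lid genes at any time. At unadjusted p below 0.05 it had RPN9 at 12 and 72 h, where 34.5% and 45.8% of all genes passed. All 8 lid changes were nonetheless negative at 12 h in crz1 cnb1 cells (median -0.13), and 5 genes lay below every 0 h library. At 48 h 5 of the 8 were negative and 1 lay below, and at 72 h 6 were negative and 5 lay below. The share of all genes without overlap in this strain is not given here. DESeq2 called RPN9 lower at 72 h in crz1 cnb1 cells, a fit to only the 72 h and 0 h libraries called RPN3, RPN8 and RPN9 lower, and without the 3 libraries that stood apart RPN8 was lower at 12 and 72 h.

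RPN11 encodes the lid's deubiquitinase, the enzyme that cuts ubiquitin chains from substrates as they enter. It had 157.7, 154.7 and 167.7 CPM at 12 h and 168.7, 188.2 and 177.1 CPM at 0 h in crz1 cnb1 cells. The same gene had 143.9, 126.9 and 121.8 CPM at 12 h and 105.8, 146.1 and 125.9 CPM at 72 h in crz1 cells, against 194.7, 187.8 and 190 CPM at 0 h. All 6 of these crz1 libraries in CaCl2 were below the lowest at 0 h, and in crz1 cnb1 cells the 12 h libraries were below those at 0 h by less. The change at 12 h in crz1 cnb1 cells was -0.15 ± 0.11 (adjusted p = 0.321). In crz1 cells it was -0.54 ± 0.11 at 12 h (adjusted p = 0.000586) and -0.60 ± 0.11 at 72 h (adjusted p = 0.000168), a fall by 34% at 72 h.

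RPN5, a scaffold subunit of the lid, had the only difference between the strains that passed the test in edgeR with all libraries. At 72 h it had 266, 250 and 251.5 CPM in crz1 cnb1 cells and 192.8, 221.3 and 174.4 CPM in crz1 cells, and the groups did not overlap. At 0 h it had 239.8, 273.6 and 255.2 CPM in crz1 cnb1 cells and 290.1, 278.5 and 256.2 CPM in crz1 cells, which overlapped. The strains differed by 0.38 ± 0.11 at 72 h (adjusted p = 0.041), with RPN5 higher in crz1 cnb1 cells. This call was lost in 8 of 13 alternatives, among them 5 of the 6 that left out a library (adjusted p 0.00956 to 0.189 over all 13). RPN8, the non-catalytic partner of RPN11, fell by 0.58 ± 0.13 at 12 h and 0.60 ± 0.13 at 72 h in crz1 cells (adjusted p = 0.00223 and 0.00135).

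In the base, 3 of 10 genes fell at 12 h in crz1 cells (RPT2, RPT3 and RPT4, all of the ATPase ring) and 1 rose (RPN10). Of all tested genes 14.4% fell and 17.6% rose there. The RPT4 call was lost in 8 of 15 alternatives. RPT3 had 275.4, 268.2 and 244.5 CPM at 12 h and 330.3, 320.7 and 305.1 CPM at 0 h in crz1 cnb1 cells. The crz1 cells had 261.4, 218 and 196 CPM at 12 h against 396.4, 329.2 and 323.3 CPM at 0 h. The groups did not overlap in either strain. The change was -0.28 ± 0.12 in crz1 cnb1 cells (adjusted p = 0.096) and -0.63 ± 0.12 in crz1 cells (adjusted p = 0.000328), a fall by 35.6% in crz1 cells. The crz1 call held under each of 15 alternatives, with changes of -0.80 to -0.53. RPT2 fell by 0.63 ± 0.15 at 12 h in crz1 cells (adjusted p = 0.00261).

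RPN10 encodes the base's ubiquitin receptor that docks substrates, and its level went the other way. In crz1 cnb1 cells it had 116.4, 102.1 and 108.7 CPM at 12 h and 118.2, 141.6 and 113.2 CPM at 72 h, against 85.9, 76.12 and 76.96 CPM at 0 h. In crz1 cells it had 128.6, 131 and 97.77 CPM at 12 h, 143.1, 119.6 and 108 CPM at 48 h and 108.6, 138 and 135 CPM at 72 h, against 95.31, 76.65 and 76.72 CPM at 0 h. No library at these times overlapped those at 0 h of its strain. At 48 h in crz1 cnb1 cells RPN10 had 106.4, 78.91 and 95.49 CPM, which overlapped the 0 h libraries, and it was not called. RPN10 rose by 0.45 ± 0.15 at 12 h and 0.64 ± 0.15 at 72 h in crz1 cnb1 cells (adjusted p = 0.0321 and 0.00195). In crz1 cells it rose by 0.52 ± 0.15, 0.58 ± 0.15 and 0.62 ± 0.15 at 12, 48 and 72 h (adjusted p = 0.00863, 0.00466 and 0.002). In limma on log2(TPM + 1) RPN10 was called only at 72 h in crz1 cnb1 cells (0.70, adjusted p = 0.0204), and the crz1 changes were 0.35, 0.24 and 0.53. RPN2, a scaffold subunit of the base, rose by 0.52 ± 0.19 at 72 h in crz1 cnb1 cells (adjusted p = 0.039), with 486.7, 455.1 and 475.1 CPM at 72 h and 379.1, 309.5 and 302.7 CPM at 0 h. That call was lost in 7 of 15 alternatives, and the RPN10 call at 12 h in crz1 cnb1 cells in 6.

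In the beta ring, 3 of 7 genes fell at 12 h in crz1 cells, where 14.4% of all tested genes fell. They were PRE3, which carries the caspase-like site, and PRE1 and PRE7, which carry none. The PRE7 call was lost in 5 of 15 alternatives. PRE2, with the chymotrypsin-like site, was not called in any comparison with 0 h. PUP1, with the trypsin-like site, was called higher in all 6. It had 130.5, 137.5 and 110.8 CPM at 12 h, 120.5, 123.6 and 132.9 CPM at 48 h and 123.5, 141.8 and 125.8 CPM at 72 h in crz1 cnb1 cells, against 102.7, 109 and 99.63 CPM at 0 h. PUP1 in crz1 cells had 142.3, 132.3 and 122.2 CPM at 12 h, 147.4, 152.8 and 138.1 CPM at 48 h and 138.4, 146 and 148.7 CPM at 72 h, against 106.6, 100.4 and 104.6 CPM at 0 h. Every library in CaCl2 was above those at 0 h of its strain. PUP1 rose by 0.28 ± 0.10, 0.28 ± 0.10 and 0.33 ± 0.10 at 12, 48 and 72 h in crz1 cnb1 cells (adjusted p = 0.0418, 0.041 and 0.0112), and by 0.35 ± 0.10, 0.49 ± 0.10 and 0.48 ± 0.10 in crz1 cells (adjusted p = 0.00801, 0.000585 and 0.000534). In limma on log2(TPM + 1) PUP1 was called only at 72 h in crz1 cells (0.39, adjusted p = 0.0481), with changes of 0.18 and 0.16 at 12 and 48 h there. The PUP1 call in crz1 cnb1 cells was lost in 9, 11 and 4 of 15 alternatives at 12, 48 and 72 h.

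In the alpha ring, 5 of 7 genes fell at 12 h in crz1 cells (14.4% of all tested genes did), with a median of -0.37. PRE5 was the 1 gene that fell in crz1 cnb1 cells, with 133.9, 124.6 and 123.3 CPM at 12 h against 161.6, 153.4 and 157.8 CPM at 0 h (-0.31 ± 0.11, adjusted p = 0.0449). That call was lost in 9 of 15 alternatives, among them each that left out a single library. PRE5 fell at all 3 times in crz1 cells, by 0.39 ± 0.11, 0.43 ± 0.11 and 0.29 ± 0.11 (adjusted p = 0.00728, 0.00413 and 0.0329), and the call at 72 h was lost in 9 of 15 alternatives. It had 140.4, 128 and 108.1 CPM at 12 h and 133.1, 121.1 and 112.9 CPM at 48 h there, against 178.8, 146.6 and 169 CPM at 0 h. The libraries did not overlap in either strain.

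PRE8, another alpha-ring gene, went up. It had 202.1, 188.4 and 234 CPM at 12 h in crz1 cnb1 cells against 175.6, 162.4 and 174.9 CPM at 0 h, a rise by 0.28 ± 0.10 (adjusted p = 0.0436) that was lost as a call in 9 of 15 alternatives. In crz1 cells it had 214.6, 194.3 and 203 CPM at 48 h and 215.5, 213.5 and 218.4 CPM at 72 h, against 173.1, 164.1 and 163 CPM at 0 h. It rose there by 0.29 ± 0.10 at 48 h and 0.37 ± 0.10 at 72 h (adjusted p = 0.0255 and 0.00439), and all 6 of those libraries were above the highest at 0 h. On the log2(TPM + 1) scale the 48 h change of PRE8 in crz1 cells was -0.04, so its direction at that time depends on the scaling. PRE9, the 1 alpha subunit that yeast can live without, fell by 0.37 ± 0.12 at 12 h and 0.42 ± 0.12 at 72 h in crz1 cells (adjusted p = 0.0211 and 0.00776).

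**Figure D4:**
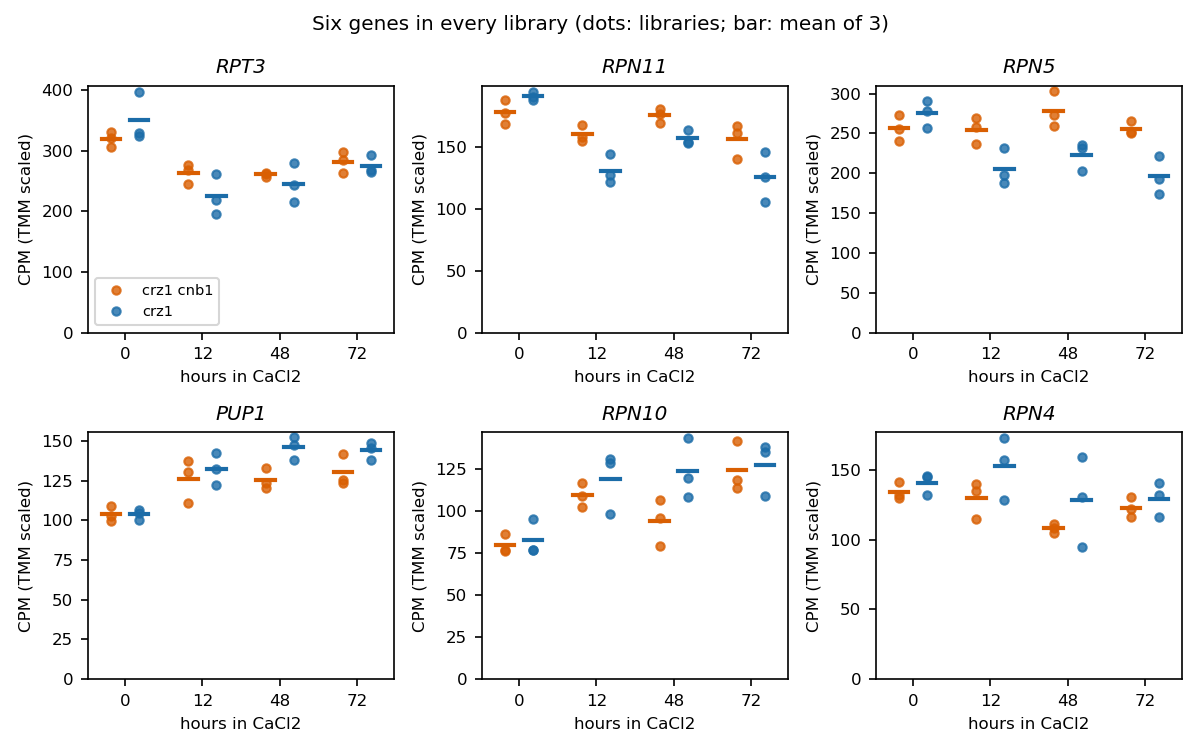
CPM (TMM scaled, vertical axes from 0) of 6 genes in every library by hours in CaCl2, with crz1 cnb1 cells in orange to the left of crz1 cells in blue; dots are libraries and bars the mean of 3. RPT3, RPN11 and RPN5 are lower in CaCl2 in crz1 cells. In crz1 cnb1 cells every RPT3 dot in CaCl2 also lies below those at 0 h, as do the RPN11 dots at 12 and 72 h. PUP1 and RPN10 are higher in both strains. The RPN10 values at 48 h in crz1 cnb1 cells overlap those at 0 h, and so do the RPN4 values in crz1 cells.

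RPN4, the gene of the activator, was not called in any comparison in edgeR with all libraries. RPN4 in crz1 cnb1 cells had 131.8, 129.6 and 141 CPM at 0 h, 114.6, 139.8 and 134.5 CPM at 12 h, 104.8, 108.4 and 111.4 CPM at 48 h and 121.8, 116 and 130.5 CPM at 72 h. RPN4 in crz1 cells had 132.1, 144.6 and 145.4 CPM at 0 h, 128.1, 157.2 and 172.8 CPM at 12 h, 159.3, 130.3 and 94.8 CPM at 48 h and 115.9, 140.3 and 131.8 CPM at 72 h. In crz1 cnb1 cells the 48 h libraries lay below those at 0 h, and in crz1 cells the groups overlapped at each time. The changes in crz1 cnb1 cells were -0.05 ± 0.14, -0.31 ± 0.14 and -0.13 ± 0.14 at 12, 48 and 72 h (adjusted p = 0.839, 0.12 and 0.505). The change in crz1 cells was 0.12 ± 0.14 at 12 h (95% confidence interval -0.18 to 0.42), -0.13 ± 0.14 at 48 h and -0.12 ± 0.14 at 72 h. Without the 3 libraries that stood apart, RPN4 at 48 h was called lower in both strains, by 0.37 in crz1 cnb1 cells (adjusted p = 0.0404) and 0.43 in crz1 cells (adjusted p = 0.0245). A fit to only the crz1 cnb1 libraries at 48 h and 0 h also called RPN4 lower (adjusted p = 0.0156), and the other 13 of 15 alternatives did not. At 12 h the strains differed in RPN4 by -0.24 ± 0.14 (95% confidence interval -0.53 to 0.06).

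Between the strains at 0 h none of the 33 genes was called by edgeR or DESeq2, where 0.0164% of all genes were called in edgeR. None had an unadjusted p below 0.05, where 1.63% of all genes did. At 12 h edgeR again called none, where 3.73% of all genes were called. DESeq2 called 2 (PRE3 and RPN3), and with the replicate number as a block 3 were called (PRE3, RPN1 and RPN3), all higher in crz1 cnb1 cells. At unadjusted p below 0.05 edgeR had 12 at 12 h, all higher in crz1 cnb1 cells, where 18.8% of all genes passed. The smallest adjusted p was 0.0549, for PRE3, with 182.3, 173.7 and 196.9 CPM in crz1 cnb1 cells and 162.6, 146.4 and 133.8 CPM in crz1 cells, a difference of 0.32 ± 0.09. Without crz1 replicate 1 at 12 h, 6 were called.

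At 48 h edgeR called none between the strains (5.12% of all genes). It had 5 at unadjusted p below 0.05, of which 3 were higher in crz1 cnb1 cells, where 23.5% of all genes passed. DESeq2 called RPN5, and the replicate block gave RPN5 and RPN7. Without crz1 replicate 1 at 48 h, and likewise without the 3 libraries that stood apart, 5 were called (RPN1, RPN2, RPN3, RPN5 and RPN7), all higher in crz1 cnb1 cells. At 72 h RPN5 was the 1 gene called by edgeR, where 6.16% of all genes were, while DESeq2 called RPN5 and RPN11, and limma on log2(TPM + 1) and edgeR without a filter called none.

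The change of the strain difference from 0 h, which tests whether the strains responded unequally, called none of the 33 at 12, 48 or 72 h in edgeR or DESeq2, where 0.0493%, 0.427% and 0.591% of all genes were called in edgeR. At unadjusted p below 0.05 there were 9, 2 and 4 of the 33, where 9.56%, 15.2% and 13.9% of all genes passed. The share of the 33 was above that of all genes at 12 h alone. All of these members were positive, that is, less negative or more positive in crz1 cnb1 cells. A joint test over the 3 times called none of the 33 and 22 genes in all (0.361%). Its 3 members at unadjusted p below 0.05 were PRE3, RPN5 and RPN11. Without crz1 replicate 1 at 48 h the 48 h test called 3 (RPN1, RPN2 and RPN7). Between 72 h and 12 h within a strain edgeR called none in crz1 cnb1 cells (4.43% of all genes) and none in crz1 cells (1.89% of all), while DESeq2 called PRE3 in crz1 cells. At unadjusted p below 0.05 there were 0 in crz1 cnb1 cells (21.6% of all genes) and 2 in crz1 cells (15.8% of all).

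**Figure D5:**
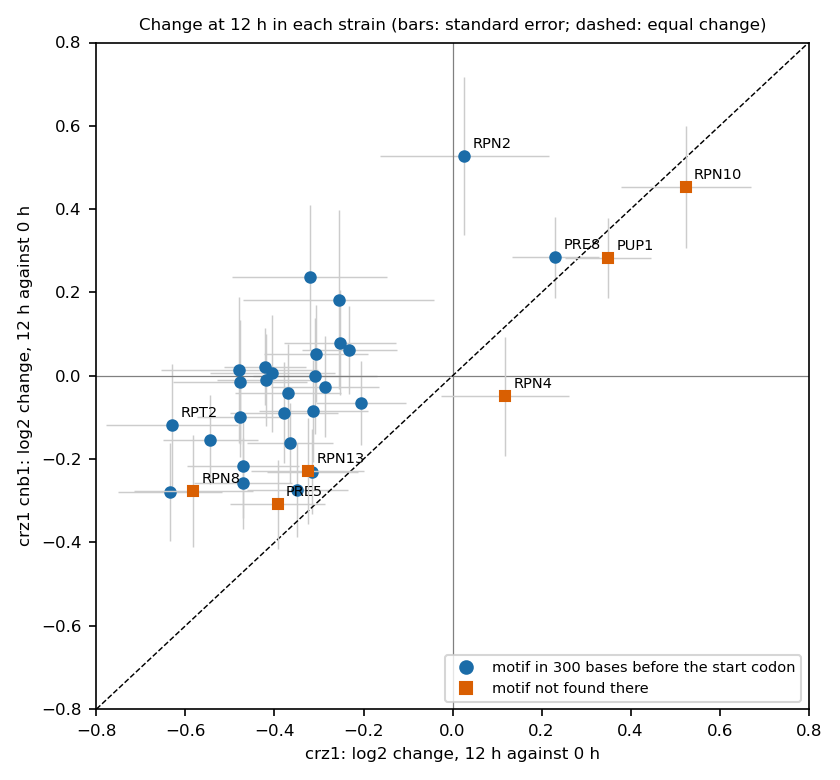
Log2 change at 12 h against 0 h in crz1 cnb1 cells (vertical) against that in crz1 cells (horizontal) for the 33 genes, with standard errors; circles have the word GGTGGCAAA in the 300 bases before the start codon, squares do not, and the dashed line is equal change. Most points lie above the line and left of 0, and PUP1, RPN10 and PRE8 lie near the line at the upper right.

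Set by the promoter word, the 27 subunits with it had 1 higher (PRE8) and 0 lower at 12 h in crz1 cnb1 cells. The 5 without the exact word, each with a sequence 1 letter from it, had 2 higher and 1 lower. In crz1 cells at 12 h the 27 had 0 higher and 16 lower, and the 5 had 2 higher (PUP1 and RPN10) and 2 lower (PRE5 and RPN8). Other genes with the word, 45 in number and chosen after the values were seen, had 8 that rose and 4 that fell in crz1 cnb1 cells at 12 h (12.9% and 7.67% of all tested genes). In crz1 cells at 12 h 7 of them rose and 9 fell, near the 17.6% and 14.4% of all genes, with a median of -0.11. The word in the sequences of RPT3 and RPN11 above stands before genes that fell, and the same word before PRE8 stands before one that rose.

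Across the 24 libraries the log2 CPM of a subunit gene correlated with the mean of the other 31 with a median Pearson r of 0.71, and 22 of 32 were over 0.5. The highest was RPT2 at 0.91 and the lowest PUP1 at -0.33, followed by PRE8 at -0.29 and RPN10 at -0.26. RPN4 had r = -0.29 with the mean of the 32 subunits. Over all tested genes the median r was 0.0075 with that mean and -0.06 with RPN4. The share of all genes over 0.5 is not given here. These correlations are descriptions over libraries that share strain, time and replicate number. The genes outside the complex most like the subunit mean were RTT106 (0.91), BRE2 (0.90), PPX1 (0.90), PAF1 (0.89) and SAS3 (0.89). Those most like RPN4 were SCM4 (0.82), OPI8 (0.81), GAT2 (0.73), DPB11 (0.72) and RPM2 (0.72).

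Genes that work with the proteasome were taken from 4 further lists, whose members were all tested. Of 9 genes for chaperones that assemble the complex, 0 rose and 0 fell at 12 h in crz1 cnb1 cells (12.9% and 7.67% of all tested genes), and 1 rose and 4 fell in crz1 cells (17.6% and 14.4% of all). RPN14, a chaperone of the base, fell by 0.43 ± 0.11 at 12 h (adjusted p = 0.00459) and NAS2, another, by 0.55 ± 0.12 at 72 h (adjusted p = 0.000832) in crz1 cells. POC4, of the core assembly chaperones, rose by 0.88 ± 0.16 in crz1 cnb1 cells (adjusted p = 0.000545) and 0.94 ± 0.16 in crz1 cells at 48 h (adjusted p = 0.000194).

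Of 6 other parts and partners of the proteasome, 1 rose and 0 fell at 12 h in crz1 cnb1 cells, and 0 rose and 2 fell in crz1 cells, beside the same shares of all genes, and with so few genes 1 call is near the share of all genes. UBP6, a deubiquitinase bound to the base, fell by 0.60 ± 0.14 at 12 h in crz1 cells (adjusted p = 0.00176). BLM10, an alternative cap of the core particle, rose by 0.54 ± 0.16 at 12 h in crz1 cnb1 cells (adjusted p = 0.0179). SEM1, a small lid subunit, had 351.7, 440.4 and 345.9 CPM at 48 h in crz1 cnb1 cells against 247.7, 260.1 and 260.1 CPM at 0 h, a change of 0.57 ± 0.21 that did not pass the test (adjusted p = 0.0531). In crz1 cells SEM1 fell by 0.57 ± 0.21 at 12 h (adjusted p = 0.043).

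Of 24 genes that attach ubiquitin or carry substrates to the proteasome, 7 rose and 0 fell at 72 h in crz1 cnb1 cells (20.1% and 15.7% of all tested genes), and 6 rose and 1 fell in crz1 cells (22.6% and 19.8% of all), so the share called higher in crz1 cells was near that of all genes. In crz1 cnb1 cells 5 rose and 1 fell at 12 h (12.9% and 7.67% of all), and 2 rose and 1 fell at 48 h (14.3% and 9.54%). In crz1 cells 2 rose and 1 fell at 12 h (17.6% and 14.4% of all), and 4 rose and 2 fell at 48 h (19.8% and 13.7%). At 12 and 48 h only the share called higher at 12 h in crz1 cnb1 cells was above that of all genes. DSK2, a shuttle that binds ubiquitin chains and the base, rose by 1.52 ± 0.22 in crz1 cnb1 cells (adjusted p = 2.2e-05) and 1.25 ± 0.22 in crz1 cells at 72 h (adjusted p = 0.000115). UBI4, the stress-induced polyubiquitin gene, rose by 0.80 ± 0.11 and 0.72 ± 0.11 at 72 h in crz1 cnb1 and crz1 cells (adjusted p = 1.49e-05 and 3.62e-05), and SAN1, a nuclear quality-control ubiquitin ligase, by 0.64 ± 0.16 and 0.81 ± 0.16 (adjusted p = 0.00357 and 0.000414).

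Of 7 genes that act on RPN4 or on Rpn4 protein, 3 rose and 0 fell at 72 h in crz1 cnb1 cells (20.1% and 15.7% of all), and 1 rose and 1 fell in crz1 cells (22.6% and 19.8% of all), where neither share was above that of all genes. HSF1, the heat shock factor, rose by 1.13 ± 0.18 in crz1 cnb1 cells (adjusted p = 5.04e-05) and 0.77 ± 0.18 in crz1 cells (adjusted p = 0.00145) at 72 h. PDR3, a drug-resistance activator, rose by 0.62 ± 0.18 at 72 h in crz1 cnb1 cells (adjusted p = 0.00886). MUB1, a partner of the ligase that marks Rpn4 for degradation, fell by 0.42 ± 0.11 at 12 h in crz1 cells (adjusted p = 0.00467).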

How the data were processed

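PolyA RNA of 24 libraries was sequenced. Raw counts of reads per gene come from the table the authors deposited, which the submitters' processing notes credit to featureCounts on build R64; DESeq2 is named there too, without versions. TPM values are the authors' own, deposited for 6737 of the 7126 genes. The ratio of counts to TPM followed gene length for 32 of the 33 genes; for PRE3 it was 0.848 of the RefSeq gene length, which includes an intron. No member overlaps another RefSeq gene.

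The main test was edgeR 4.0.16 (R 4.3.3) on these counts: default filter on low counts, TMM scaling, quasi-likelihood F test, all 24 libraries, 1 coefficient per group, 15 comparisons. P-values were adjusted over all 6089 tested genes, and an adjusted p without a named tool is edgeR's. Alternatives were RLE size factors, no filter, the replicate number as a block, a fit to the compared libraries alone, DESeq2 1.42.0, limma 3.58.1 on log2(TPM + 1) and log2(TPM + 0.1), and each library left out. Leaving out 3 libraries at once was added after seeing the data. The labels name triplicate time courses and do not say how separate the cultures were, so p-values measure the spread between these libraries. The code was tested on simulated data.

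Replicate numbers passed as pairs where each pair of same-numbered libraries deviated together from the group means, with correlations over 0.1. This held for crz1 at 12 h against 0 h (lowest 0.148) and for the strains at 0, 12 and 48 h (0.645, 0.228 and 0.115). The main test did not use the pairs in any comparison, so its p-values are unpaired. The replicate number entered only as a block among the alternatives. No 2 libraries of the same group agreed within sampling noise, and libraries of different groups were not compared in this way.

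The members and lists were chosen with earlier results of these data known. Values per library are given for RPN4, for the gene of each of 4 subunit groups with the smallest p against 0 h, for genes called against the direction of most called genes of a comparison, and for genes called between strains; from each further list the 3 genes with the smallest p are named. RPN2, RPN8, RPT2, PRE1, PRE3, PRE7, PRE9 and SCL1 were added after their values were seen. Promoter windows come from the RefSeq R64 genome. Plots used matplotlib 3.10.9 and Python 3.11.15.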

Additional observations from a re-analysis of the deposited data

How the results depend on the processing

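Of 941 values of single genes under an alternative, 758 kept their direction and their side of the threshold, 174 kept the direction and lost the call, 3 gained one and 6 reversed. The reversals were RPN4 at 12 h in crz1 cells on log2(TPM + 1) and log2(TPM + 0.1) (-0.0522 and -0.0529), PRE8 at 48 h in crz1 cells on these scales (-0.0404 and -0.0407), RPN4 at 48 h in crz1 cells without replicate 3 of 48 h (0.010; -0.32 without replicate 1), and RPN4 at 12 h in crz1 cnb1 cells without replicate 1 of 12 h (0.033; -0.11 without replicate 2). Counts below are of the 33 genes called, each moved from that in the report; the cause was not tested.

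With a replicate block in the fit to all libraries, crz1 cnb1 cells had 7 at 12 h and 3 at 48 h, and the strains differed in 3 at 12 h and 2 at 48 h; as a block within strain, crz1 cnb1 cells had 3 at 48 h. The block moved no other count by over 1.5 times; where the numbers did not pass as pairs, libraries share only a number. RLE size factors gave 2 in crz1 cnb1 cells at 48 h. No filter gave 2 there at 12 h and 0 between strains at 72 h. A fit to the compared libraries alone gave 4 at 48 h and 9 at 72 h in crz1 cnb1 cells and 0 at 48 h in crz1 cells. DESeq2 gave 4 in crz1 cnb1 cells at 48 h, 1 in crz1 cells at 72 h against 12 h, and 2, 1 and 2 between strains at 12, 48 and 72 h.

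On log2(TPM + 1) and log2(TPM + 0.1) alike, limma gave 0, 0 and 1 in crz1 cnb1 cells at 12, 48 and 72 h, 10 in crz1 cells at 72 h, and 3 and 0 between strains at 48 and 72 h; in crz1 cells at 48 h it gave 18 and 17. Without the 3 libraries that stood apart there were 3 at 48 h and 5 at 72 h in crz1 cnb1 cells, 5 between strains at 48 h, and 3 for the change of that difference from 0 h at 48 h.

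With each library left out in turn, crz1 cnb1 cells had 0 to 2, 0 and 1 to 3 at 12, 48 and 72 h, and crz1 cells 12 to 23, 6 to 14 and 10 to 18. The strains differed in 0 to 6, 0 to 5 and 0 to 2 at 12, 48 and 72 h, and the change of that difference at 48 h in 0 to 3. The counts of 0 between strains at 0 h, between 72 h and 12 h, and for the change of the strain difference at 12 and 72 h stayed at 0 with each library left out. The lowest count of any of the 33 genes in a library was 1153 (RPN13).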
